A study of Mus musculus with 25 samples.

Results

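Mlxipl, which encodes the glucose-responsive transcription factor ChREBP, and 7 genes of the protein network it belongs to were followed in pgWAT, the perigonadal white fat that lies along the epididymis. The members are Mlxipl, Mlxip, Mlx, Max, Mnt, Mxd1, Mxd4 and Mxi1, and they were taken by the gene name that the array design gives each probe. They were 8 of 26420 gene names in the processed table and were read by 16 of its 40561 probes. All 16 probes were well above background on all 25 arrays, so no member was lost to a filter on dim probes.

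ChREBP is a basic helix-loop-helix leucine zipper protein that binds DNA as a heterodimer with Mlx, and in fat and liver it is known for switching on genes of lipid synthesis after carbohydrate intake. Mlx also pairs with Mlxip (MondoA), the closest relative of ChREBP, and with some of the repressors of the network, namely Mnt, Mxd1 and Mxd4. Max is the corresponding partner on the Myc side of the network, where the repressors Mnt, Mxd1, Mxd4 and Mxi1 compete with Myc for it. Mlxipl is transcribed from an upstream promoter that gives the short isoform ChREBPβ and from a downstream promoter that gives the full-length ChREBPα.

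The question was whether loss of ChREBPβ, or of both isoforms, alters pgWAT transcripts. Single-colour Agilent arrays were run on male C57BL6/J mice, with 1 array per mouse, after a fast of 24 hours and 18 hours of refeeding with 20% glucose in the drinking water. ChREBPβ KO mice (6 arrays) lack exon 1b, which only the ChREBPβ transcript contains, after editing with a pair of Cas9 guides. Their wild-type littermates are ChREBPβ WT (7 arrays). Total ChREBP KO mice (5 arrays) are Mlxipl-null and lack ChREBPα and ChREBPβ, and total ChREBP WT (7 arrays) are the wild types the labels set beside them. Both deletions were present in every tissue of the animal. Which of the derived ChREBPβ lines was arrayed, the age of the mice and the part of Mlxipl deleted in the total knockout are not given in the sources used here. The arrays were of like quality, with 73.0% to 77.9% of spots well above background and 0 saturated spots, and the 4 groups were spread over all 4 wash batches. Total ChREBP KO replicates 3, 7 and 1 were the only arrays of their group in wash batches 2, 3 and 4. Wash batch 2 held only a single array of every group. Differences within a wash batch, given below, thus often rest on single arrays.

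Markers of adipocytes were high on every array, with a mean log2 level over 7 genes of 16.28 to 16.85. They were higher in total ChREBP KO (16.72 to 16.78) than in its wild type (16.28 to 16.54). There 3 of 7 passed as higher and 0 as lower (Lpl 0.58, Plin1 0.43 and Cidec 0.39, list median 0.32), and 10.8% of all genes passed. In the ChREBPβ line they ran from 16.49 to 16.66 in wild types and from 16.53 to 16.85 in knockouts. Of the 7, 0 passed there (limma, list median 0.14). Their part in the member differences was not tested. RNA of other organs differed between arrays. In the ChREBPβ line the mean over 8 liver markers was 11.65 to 15.44 in wild types and 10.34 to 14.91 in knockouts. The total ChREBP line had 7.17 to 12.42 in wild types and 6.81 to 7.78 in knockouts. Replicate 2 of total ChREBP WT had the highest liver mean of its group and also the highest epididymis mean of all arrays (12.75, over the 2 of 6 epididymis markers in the table). The mean over 3 of 5 kidney markers reached 12.72 in wild types and 9.47 in knockouts of the ChREBPβ line, against 6.67 and 5.92 in the total ChREBP line. Liver is a tissue that expresses Mlxipl, so the liver values are set beside the results they move with. In bulk tissue, fewer cells of a type and less RNA per cell cannot be told apart.

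The promoter windows of the members are shown because the ChREBPβ deletion concerns the first exon of a single Mlxipl isoform. Sequences are those of RefSeq on GRCm38.p6, each window holds the 250 bases before a start and the 50 after it, and all 8 genes were matched by symbol, with 11 windows in all. Mlxipl has 2 starts, 17001 bases apart on the plus strand of chromosome 5. The window of the upstream start is chr5:135089640-135089939 and that of the downstream start chr5:135106641-135106940. Capitals mark CACGTG, the E-box core read by proteins of this network, which was searched for as these letters and reads the same on both strands. The 250 bases before the upstream start of Mlxipl hold 1 match, whose first base lies 98 bases before the start.
Mlxipl upstream: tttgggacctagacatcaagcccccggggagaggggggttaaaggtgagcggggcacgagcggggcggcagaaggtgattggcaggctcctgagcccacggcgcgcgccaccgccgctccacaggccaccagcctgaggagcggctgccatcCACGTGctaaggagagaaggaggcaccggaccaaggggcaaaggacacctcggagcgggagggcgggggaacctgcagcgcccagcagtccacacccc
The window of the downstream start held 0 matches.

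Of the 11 member windows, 5 held CACGTG, against 7.15% of the 32851 windows of all genes (2349 windows). These 5 belong to Mlxipl (upstream start), Mlx, Max, Mnt and Mxd4. The windows of Mlxip, Mxd1 and Mxi1 (3 starts) held 0 matches. The stretches of 30 bases around the match are given for the other 4 genes, in the direction of transcription. Of these, Mlx, Max and Mxd4 differed in transcript level between the total ChREBP groups, and Mnt differed between the wild types. Mlxip, whose window held 0 matches, also differed between the wild types. A match is a description of these letters and says nothing of what binds there.
Mlx (chr11:101087040-101087339, plus strand): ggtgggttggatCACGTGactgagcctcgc
Max (chr12:76962199-76962498, minus strand): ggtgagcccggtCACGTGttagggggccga
Mnt (chr11:74830674-74830973, plus strand): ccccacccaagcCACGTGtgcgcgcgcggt
Mxd4 (chr5:34187661-34187960, minus strand): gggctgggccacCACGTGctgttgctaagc

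Of the array's probes, 0 shared a run of 20 bases with either Mlxipl start window, which reaches 50 bases past the start, and the rest of the first exons was not searched. Which isoform a probe reads is not known here. The array design places the 3 Mlxipl probes on the plus strand of chromosome 5 of mm9, A_55_P2728555 at 135598483 to 135599113, A_55_P2119957 at 135613705 to 135613764 and A_55_P2045158 at 135614195 to 135614252. The first of them is a probe of 60 bases that spans 631 bases of the genome. No annotation of mm9 was used here, so the exon of a probe is not stated.

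The sequences of the Mlxipl probes show how far each is shared with other probes of this array. Transcripts and the genome were not searched for them. A stretch of 30 of the 60 bases is given for each, with capitals on the run of 15 bases that most probes of other genes hold on either strand.
A_55_P2119957, bases 9 to 38: gcatgaaTGTAGATGTGTGTGTgcgtatgt
A_55_P2728555, bases 26 to 55: tcctctaCTACACAGAGAAACCctgtctca
A_55_P2045158, bases 27 to 56: ggtgatgCACACCTTTAATCCCagtacttg
Probes of 29 other genes held at least 1 such run of A_55_P2728555, against 7 for A_55_P2045158 and 3 for A_55_P2119957. Among the other 13 member probes this number was 0 to 2, and of all 56605 probes of the array 43.6% shared such a run with a probe of another gene. How the sharing moves a probe's signal was not tested.

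The targeted gene, Mlxipl, had lower levels without both isoforms on 2 of its 3 probes, and the probes did not move alike. On its brightest probe, A_55_P2119957, log2 levels in total ChREBP WT ran from 15.74 through a median of 16.00 to 16.24. The 5 total ChREBP KO arrays read 14.25, 14.23, 14.29, 14.07 and 14.19. The groups were separate, by far more than the spread in either (16.0 ± 0.16, SD, n = 7, against 14.2 ± 0.08, SD, n = 5). The difference was -1.77 (SE 0.14, 95% interval -2.05 to -1.49, limma adjusted p = 1.11e-08), a level 3.41-fold lower. Within the 4 wash batches it was -1.82 to -1.63. The probe was still well above background on all 5 knockout arrays, and since the deleted stretch is not known, this does not check the label.

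In the ChREBPβ line the same probe ran from 14.72 through a median of 15.06 to 15.46 in wild types. In ChREBPβ KO it ran from 14.02 through a median of 14.34 to 14.64, with replicates 2, 5 and 6 at 14.02 to 14.10 and replicates 3, 4 and 8 at 14.59 to 14.64. The 2 groups did not overlap, though the nearest arrays were less than 0.1 apart. The difference of -0.74 (SE 0.13, 95% interval -1.01 to -0.47), a level 1.67-fold lower, had an unadjusted p = 1.15e-05 and did not pass adjustment over all probes (limma adjusted p = 0.116). It was negative in all 4 wash batches (-0.92 to -0.39). Without ChREBPβ KO replicate 4 it was -0.81 and passed (limma adjusted p = 0.0207), and array quality weights gave -0.86 (limma adjusted p = 0.0129).

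**Figure D1:**
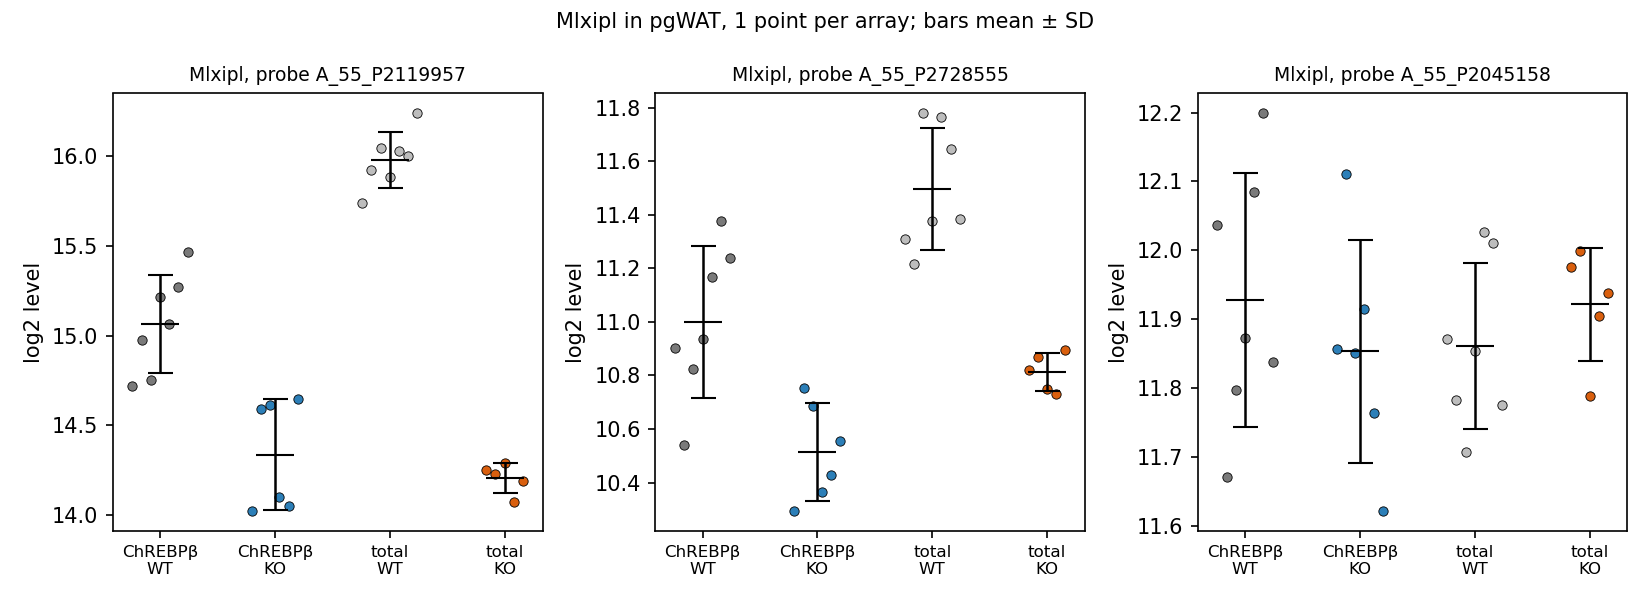
Log2 levels of the 3 Mlxipl probes (vertical axes, each panel on its own scale) in the 4 groups, with 1 point per array and bars for mean ± SD. On A_55_P2119957 the total ChREBP WT arrays sit at 15.74 to 16.24, above all other arrays, and the total ChREBP KO arrays at 14.07 to 14.29, while on A_55_P2045158 the 4 groups overlap.

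The effect on this probe was larger in the total knockout. The total effect minus the ChREBPβ effect was -1.03 (SE 0.19, limma adjusted p = 0.00162). The wild types already differed, total ChREBP WT being 0.91 higher than ChREBPβ WT (SE 0.12, limma adjusted p = 3.99e-05) with no overlap (on A_55_P2728555 it was 0.50 higher, limma adjusted p = 0.00300). The knockouts differed by -0.12 (SE 0.14, 95% interval -0.41 to 0.17, limma adjusted p = 0.617). On A_55_P2728555 total ChREBP KO was instead 0.30 higher than ChREBPβ KO (95% interval 0.04 to 0.57, limma adjusted p = 0.108). In the order of the group means on A_55_P2119957, total ChREBP WT came first, ChREBPβ WT second, and the 2 knockouts last with overlapping arrays.

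The probe A_55_P2728555 followed the same order of wild types over knockouts at a smaller size. It ran from 11.22 through a median of 11.38 to 11.78 in total ChREBP WT, and the 5 total ChREBP KO arrays read 10.82, 10.87, 10.75, 10.73 and 10.89, again without overlap. The difference was -0.66 (SE 0.12, limma adjusted p = 0.00103). In the ChREBPβ line it ran from 10.54 through 10.94 to 11.38 in wild types and from 10.30 through 10.49 to 10.75 in knockouts, and 3 of 6 knockout arrays lay below every wild type. That difference was -0.47 (SE 0.12, unadjusted p = 0.000668, limma adjusted p = 0.255), and it was negative in 3 of 4 wash batches (-0.77 to 0.21). The difference of the effects was -0.20 (SE 0.17, limma adjusted p = 0.764), so unlike A_55_P2119957 this probe did not show a larger effect in the total knockout beyond its error.

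The probe A_55_P2045158, which the array design places downstream of A_55_P2119957, had group means of 11.9 in all 4 groups. Its difference was 0.08 (SE 0.08, 95% interval -0.09 to 0.24, limma adjusted p = 0.695) in the total line and -0.06 (SE 0.08, 95% interval -0.21 to 0.10, limma adjusted p = 0.896) in the ChREBPβ line. These intervals leave out the differences seen on the other Mlxipl probes. A mean over the 3 probes, which takes in this flat probe, differed by less. It was -0.79 in the total line (limma adjusted p = 5.42e-06) and -0.42 in the ChREBPβ line (limma adjusted p = 0.178). The difference of effects did not pass for this mean (-0.37, limma adjusted p = 0.167). What the flat probe reads was not tested, so the mean is not a better measure of the gene.

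The liver marker mean averaged 9.35 in total ChREBP WT and 7.21 in its knockout, and 14.1 in ChREBPβ WT and 12.9 in its knockout. Of the 8 markers, 1 passed in the total line (Fgb, lower) and 0 in the ChREBPβ line (limma), beside 10.8% and 0% of all genes. With the liver mean as a covariate, added after the arrays were seen to differ, the Mlxipl difference on A_55_P2119957 was -1.77 in the total line and -0.74 in the ChREBPβ line (limma adjusted p = 2.35e-07 and 0.327), as large as without it.

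Across the network, 4 of the 8 member genes passed in total ChREBP KO against its wild type (limma adjusted p under 0.05 on at least 1 probe), 3 lower (Mlxipl, Mlx and Max) and 1 higher (Mxd4). Of all genes, 10.8% passed. By probe it was 7 of 16 members against 8.79% of all probes, of which 5.35% were higher and 3.44% lower. The groups did not overlap on 5 member probes, and on 6.80% of all probes. The median difference was -0.03 over the member probes and 0.02 over all probes. Between the ChREBPβ groups 0 member genes passed, as did 0% of all genes and 0% of all probes in limma. At an unadjusted p under 0.05 there were 2 of 16 member probes, both of Mlxipl, against 9.02% of all probes, and the groups did not overlap on 1 member probe, against 0.069% of all probes.

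**Figure D2:**
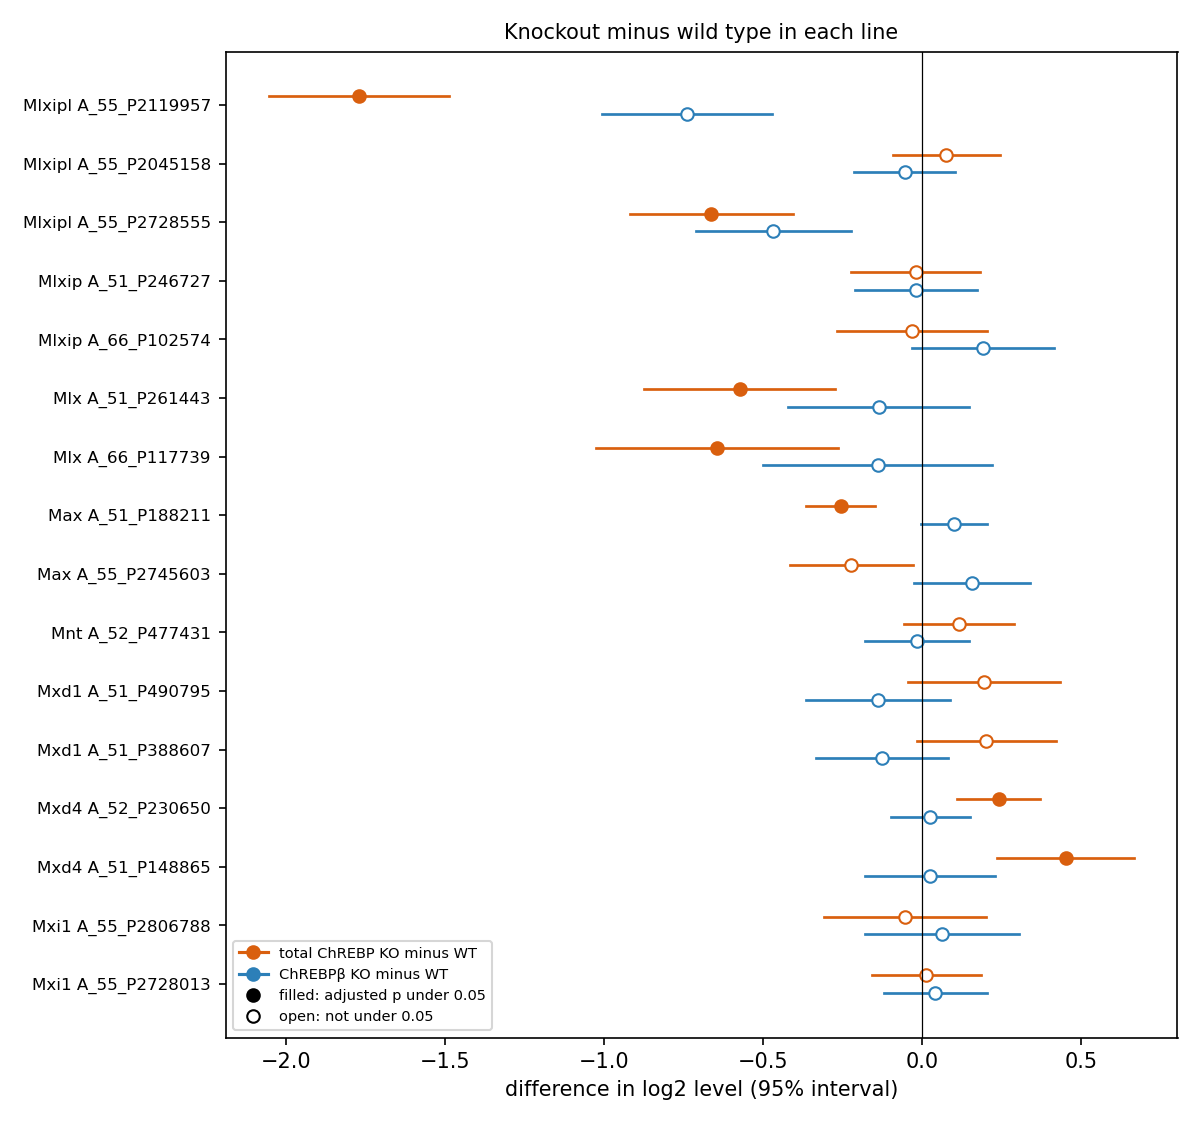
Knockout minus wild type in log2 level (horizontal axis) for each of the 16 member probes, in the total ChREBP line (orange) and the ChREBPβ line (blue), with 95% intervals; filled points passed at an adjusted p under 0.05. The Mlxipl probes A_55_P2119957 and A_55_P2728555 lie left of 0 in both lines, Mlx and Max do so in the total line, and Mxd4 lies right of 0 in the total line.

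Mlx, the obligate partner of ChREBP for DNA binding, was the most changed partner, with 2 probes that moved alike. On A_51_P261443, total ChREBP WT ran from 11.82 through a median of 12.11 to 12.56, and the 5 total ChREBP KO arrays read 11.51, 11.72, 11.75, 11.29 and 11.76. The groups did not overlap, with the nearest arrays less than 0.1 apart. The difference was -0.57 (SE 0.14, limma adjusted p = 0.0135), or 1.49-fold lower. On A_66_P117739 it was -0.65 (SE 0.18, limma adjusted p = 0.0286), and 4 of 5 knockout arrays lay below every wild type. Both probes were lower in each of the 4 wash batches.

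Mlx was also set beside the liver markers. In total ChREBP WT, A_51_P261443 read 12.52, 12.22, 12.56, 11.90, 12.11, 12.06 and 11.82 on replicates 2 to 8. Their liver means were 12.42, 9.67, 8.65, 7.65, 10.76, 9.11 and 7.17 in the same order. Total ChREBP KO replicates 1, 2, 3, 4 and 7 read 11.51, 11.72, 11.75, 11.29 and 11.76. The liver means of these knockouts were 6.81, 7.78, 7.15, 7.20 and 7.13. Between the wild types Mlx was higher and the liver markers were lower in total ChREBP WT. The causes were not tested. With the liver mean as a covariate, the total-line difference was -0.37 on A_51_P261443 (limma adjusted p = 0.128) and -0.42 on A_66_P117739 (limma adjusted p = 0.219), and neither passed. A model of the total ChREBP arrays alone gave -0.57 and -0.65 (limma adjusted p = 0.0571 and 0.0552). On A_51_P261443 the difference was -0.54 without total ChREBP KO replicate 1 and -0.49 without replicate 4 (limma adjusted p = 0.0501 and 0.0509), and on A_66_P117739 it was -0.59 and -0.52 (limma adjusted p = 0.0980 and 0.0989). Probe A_66_P117739 alone also lost its call without total ChREBP WT replicate 2, 3, 4 or 7 (-0.64 to -0.57, limma adjusted p = 0.0523 to 0.0756).

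Mlx in the ChREBPβ line, on A_51_P261443, ran from 10.88 through 11.13 to 11.41 in wild types and from 10.70 through 10.97 to 11.31 in knockouts, and 3 of 6 knockout arrays lay below every wild type. The difference was -0.14 (SE 0.14, 95% interval -0.42 to 0.15, limma adjusted p = 0.837), and on A_66_P117739 it was -0.14 (SE 0.17, limma adjusted p = 0.880). The contrast of both effects did not pass (-0.44, limma adjusted p = 0.343, and -0.51, limma adjusted p = 0.417), so the Mlx effects are not shown to differ.

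Max, the dimer partner of Myc and of the Mxd repressors, differed by less, with a small spread. On A_51_P188211, total ChREBP WT ran from 12.73 through a median of 12.85 to 12.95, and the 5 total ChREBP KO arrays read 12.61, 12.60, 12.49, 12.64 and 12.56, all lower than the wild types. The difference was -0.26 (SE 0.05, limma adjusted p = 0.00236), or 1.19-fold lower, and it lay between -0.31 and -0.22 in the 4 wash batches. Among ChREBPβ arrays the probe ran from 12.51 through 12.66 to 12.76 in wild types and from 12.63 through 12.74 to 12.87 in knockouts, with a difference of 0.10 (SE 0.05, limma adjusted p = 0.566). The effects of the lines differed by -0.36 (SE 0.07, limma adjusted p = 0.00458). The dimmer Max probe, A_55_P2745603, had differences of -0.22 (limma adjusted p = 0.163) and 0.16 (limma adjusted p = 0.628). With the liver mean as a covariate the total-line difference on A_51_P188211 was -0.29 (limma adjusted p = 0.00336).

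Mlxipl and Max were the 2 member genes for which the effects of the 2 knockouts differed, both on 1 probe, against 4.00% of all genes. By probe this was 2 of 16, both lower in the total line, against 3.21% of all probes (1.29% higher and 1.92% lower).

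Among the repressors, Mxd4, which pairs with Max and Mlx, was the member that rose in total ChREBP KO. On A_51_P148865, total ChREBP WT ran from 9.21 through a median of 9.60 to 9.69, and the 5 total ChREBP KO arrays read 9.95, 9.92, 10.12, 10.02 and 9.97, above all wild types. The difference was 0.45 (SE 0.10, limma adjusted p = 0.00697), or 1.37-fold higher. On A_52_P230650 it was 0.24 (SE 0.06, limma adjusted p = 0.0168), and 4 of 5 knockout arrays lay above every wild type. With the liver covariate the differences were 0.41 (limma adjusted p = 0.0453) and 0.18 (limma adjusted p = 0.129), and with liver, kidney and epididymis means together A_51_P148865 did not pass (0.42, limma adjusted p = 0.0629). Nor did it with the replicate number as a fixed term beside wash batch (0.45, limma adjusted p = 0.0569). Without total ChREBP KO replicate 3 or total ChREBP WT replicate 3 the difference on A_52_P230650 was 0.22 and did not pass (limma adjusted p = 0.0566 and 0.0501). Both probes in the ChREBPβ line differed by 0.02 to 0.03 (limma adjusted p = 0.974 and 0.950). The difference between the lines did not pass (0.43, limma adjusted p = 0.131, and 0.22, limma adjusted p = 0.242).

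**Figure D3:**
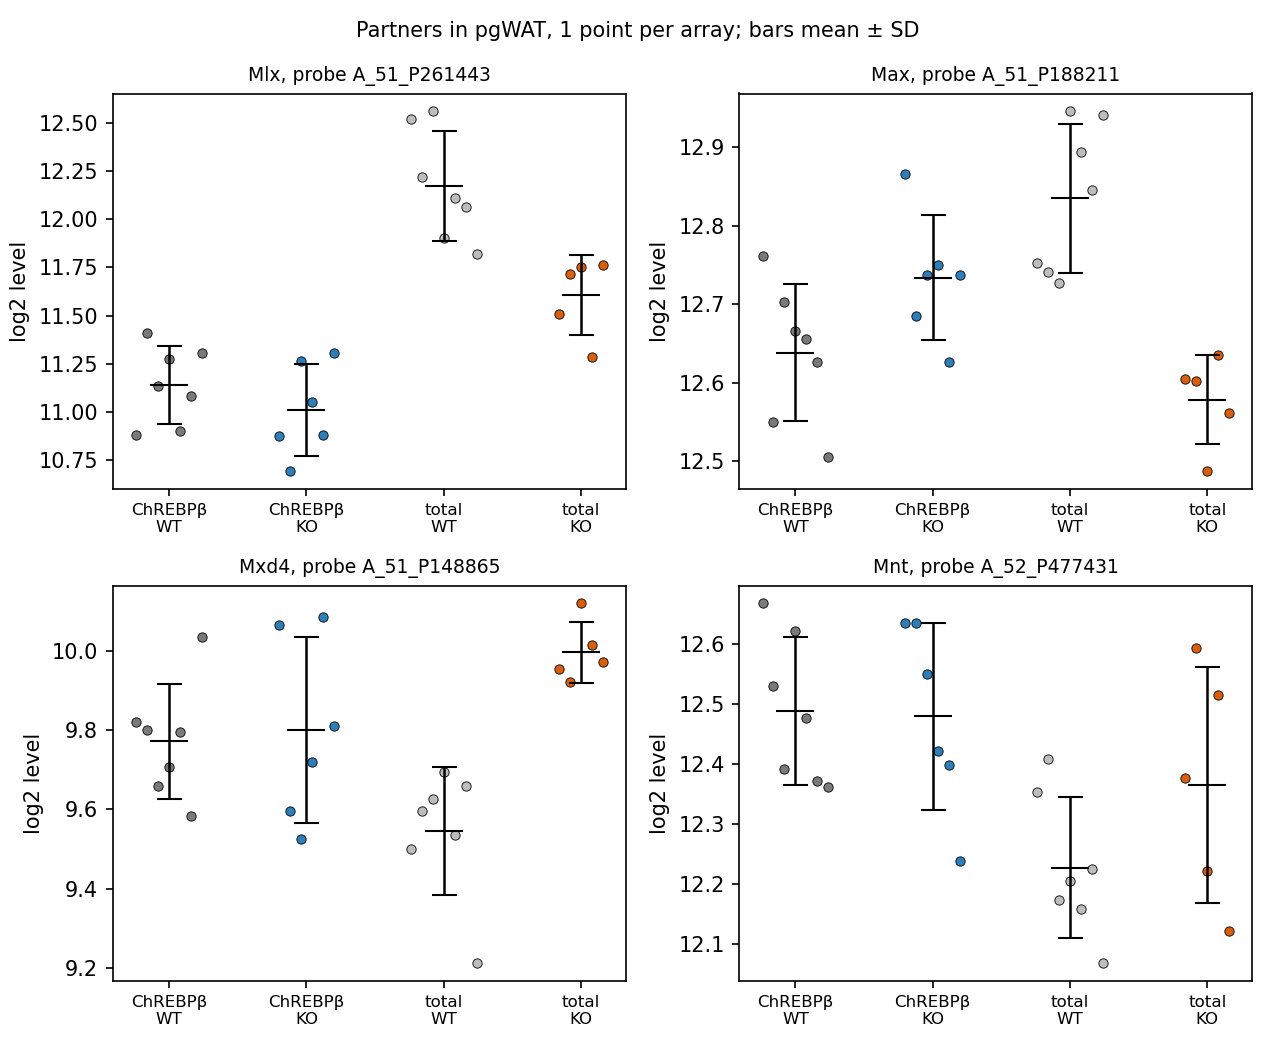
Log2 levels of Mlx, Max, Mxd4 and Mnt on 1 probe each (vertical axes, each panel on its own scale) in the 4 groups, with 1 point per array and bars for mean ± SD. Total ChREBP KO arrays lie below total ChREBP WT for Mlx and Max and above it for Mxd4, and for Mnt the 2 groups overlap.

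The other members did not pass in either knockout comparison. Mnt, the repressor that can pair with Max or Mlx, ran from 12.07 through a median of 12.20 to 12.41 in total ChREBP WT, and the 5 total ChREBP KO arrays read 12.38, 12.59, 12.22, 12.52 and 12.12. The groups overlapped and the difference was 0.12 (SE 0.08, 95% interval -0.06 to 0.29, limma adjusted p = 0.500). Between the ChREBPβ groups it was -0.02 (SE 0.08, limma adjusted p = 0.978). The 2 probes of Mxd1, a repressor of the same family, had differences of 0.19 and 0.20 in the total line and -0.14 and -0.13 in the ChREBPβ line (limma adjusted p = 0.294 to 0.766). Mxi1, another repressor that pairs with Max, had differences of -0.05 and 0.01 in the total line and 0.06 and 0.04 in the ChREBPβ line. Mlxip, the paralogue of Mlxipl that also acts with Mlx, differed by -0.02 and -0.03 in the total line. On its brighter probe, A_51_P246727, the 95% interval was -0.22 to 0.18. The Mlxip differences in the ChREBPβ line were -0.02 and 0.19 (limma adjusted p = 0.979 and 0.627).

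The wild types of the lines differed in more members than either knockout comparison. Of the 8 genes, 5 passed in total ChREBP WT against ChREBPβ WT, 4 higher (Mlxipl, Mlxip, Mlx and Max) and 1 lower (Mnt), and of all genes 27.0% passed. By probe it was 8 of 16 against 22.0% of all probes (14.7% higher and 7.26% lower), and 3 member probes had no overlap, against 5.06% of all. Mlx was 1.03 higher on A_51_P261443 (SE 0.13, limma adjusted p = 2.28e-05) and 1.02 higher on A_66_P117739 (SE 0.17, limma adjusted p = 0.000222), and on both probes all 7 total ChREBP WT arrays lay above all 7 ChREBPβ WT arrays. Max was 0.20 higher on A_51_P188211 (limma adjusted p = 0.00479) and 0.27 higher on A_55_P2745603 (limma adjusted p = 0.0257). Mlxip was 0.42 higher on its dim probe A_66_P102574 (SE 0.10, limma adjusted p = 0.00569, but 0.0881 with no wash batch term, 0.0819 with scan day in its place and 0.0689 with replicate number in its place) and 0.15 higher on A_51_P246727 (limma adjusted p = 0.226). Mnt ran from 12.36 through 12.48 to 12.67 in ChREBPβ WT, and 6 of 7 total ChREBP WT arrays lay below that range, with a difference of -0.26 (SE 0.08, limma adjusted p = 0.0162).

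All 8 liver markers were lower in the same wild-type comparison, with a median difference of -4.53. With the liver mean as a covariate, Mlxipl (0.91, limma adjusted p = 0.0125) and Mlx (1.49 on A_51_P261443, limma adjusted p = 0.000240) passed, and Max, Mlxip and Mnt did not (limma adjusted p = 0.374, 0.150 and 0.185). Over the whole array this model called 2821 of 40561 probes, against 8912 without the covariate. With liver, kidney and epididymis means together 0 of the 8 genes passed, where 1 of 40561 probes was called. The Mlxipl difference in that model was 1.14 with a larger error (SE 0.32, limma adjusted p = 0.193). The line of the mice and the RNA of other organs cannot be told apart in this comparison.

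**Figure D4:**
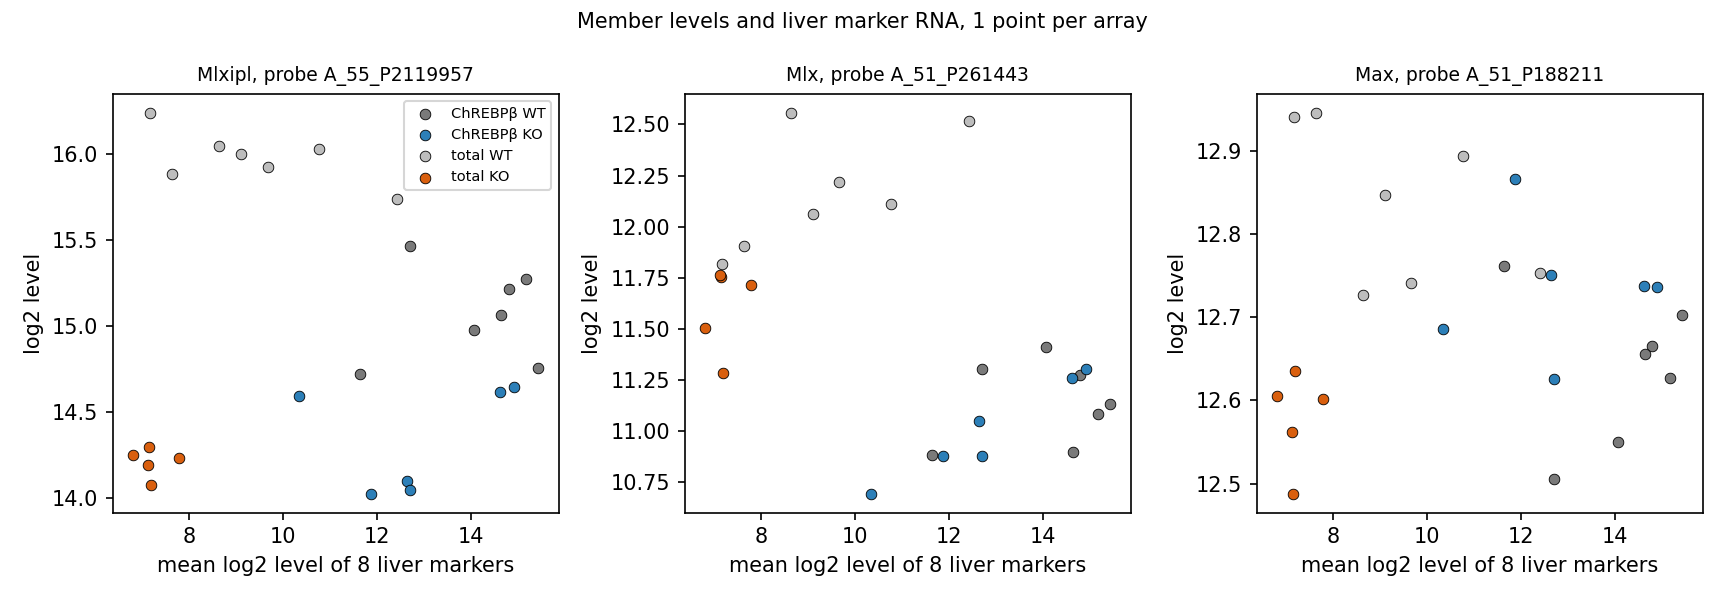
Log2 level of Mlxipl, Mlx and Max on 1 probe each (vertical axes) against the mean log2 level of 8 liver markers (horizontal axes), with 1 point per array and colours for the 4 groups. The total ChREBP arrays cover liver means of 6.81 to 12.42 and the ChREBPβ arrays 10.34 to 15.44. For Mlx the total ChREBP WT arrays with liver means of 7.17 and 7.65 lie nearest the total ChREBP KO arrays. The arrays at 8.65 and 12.42 lie farthest from them.

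Between the knockouts, a comparison added after the others, 3 of 8 member genes passed in total ChREBP KO against ChREBPβ KO, against 22.2% of all genes. By probe it was 3 of 16 against 18.0% of all probes (12.1% higher and 5.85% lower), and 0 member probes were without overlap, against 12.3% of all. Mlx was 0.59 higher (A_51_P261443, SE 0.15, limma adjusted p = 0.00808), Mxd4 was 0.27 higher (A_52_P230650, SE 0.06, limma adjusted p = 0.00596) and Max was 0.16 lower (A_51_P188211, SE 0.05, limma adjusted p = 0.0436). The other probe of each gene had the same sign and did not pass, at 0.51 for Mlx (A_66_P117739, limma adjusted p = 0.0655), 0.20 for Mxd4 (A_51_P148865, limma adjusted p = 0.215) and -0.11 for Max (A_55_P2745603, limma adjusted p = 0.476). All 8 liver markers were lower here too, with a median difference of -5.42. Under 40 alternatives, left-out arrays and organ covariates among them, Mlx on A_51_P261443 passed in 39 (0.49 to 1.14). Mxd4 on A_52_P230650 passed in 38 (0.05 to 0.31), and Max on A_51_P188211 in 17 (-0.25 to -0.12). The covariate models are not given one by one for this comparison, and the causes of these differences were not tested. The comparisons share groups with those above, and each is given by its own values.

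**Figure D5:**
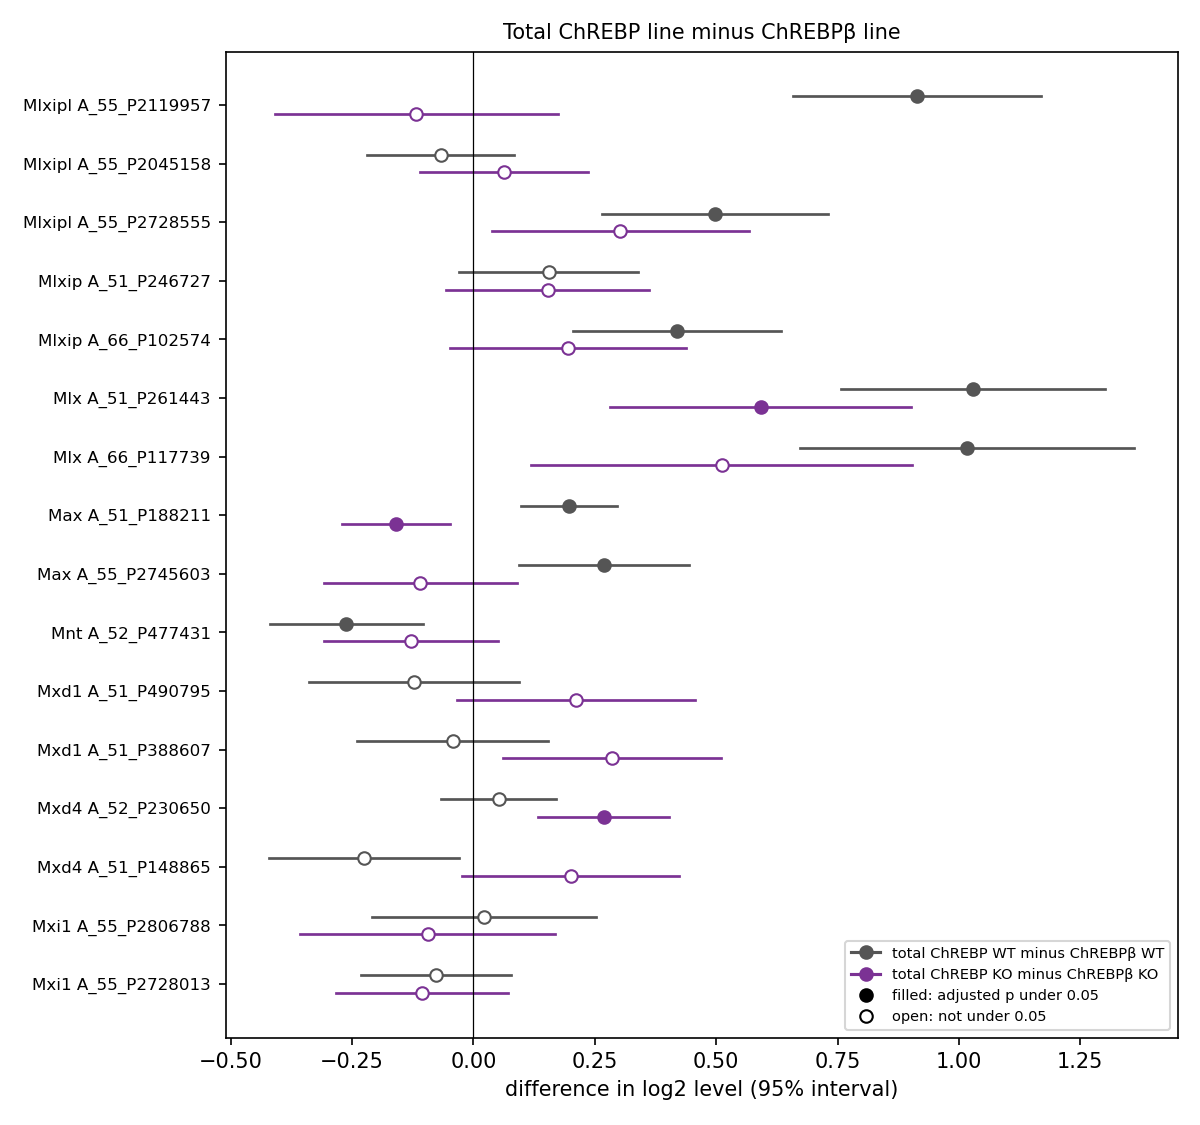
Total ChREBP line minus ChREBPβ line in log2 level (horizontal axis) for each of the 16 member probes, between wild types (grey) and between knockouts (purple), with 95% intervals; filled points passed at an adjusted p under 0.05. Both Mlx probes lie right of 0 in both comparisons, and Mlxipl probe A_55_P2119957 does so between wild types, at 0.91, and lies at -0.12 between knockouts.

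Other genes around the members were counted from lists, beside 10.8% of all genes passing in the total line and 0% in the ChREBPβ line. Of 10 other genes of the Myc and Max network, among them Myc and the corepressor scaffolds Sin3a and Sin3b, 0 passed in either knockout comparison (limma), and their median difference was 0.04 in the total line. Mycn (0.71, unadjusted p = 0.0241, limma adjusted p = 0.156) and Mycl (0.80, limma adjusted p = 0.0833), which pair with Max, had the largest differences of the list and are named after their values were seen. In the wild-type comparison 1 of the 10 was higher and 1 lower, where 27.0% of all genes passed. Hdac2, a histone deacetylase recruited by the repressors, was 0.41 higher (limma adjusted p = 0.00404) and Mycl was 0.82 lower (-0.82, limma adjusted p = 0.0241).

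Of 17 genes whose products modify, move or assist ChREBP, 2 were higher and 2 lower in total ChREBP KO, where 10.8% of all genes passed and the median over all probes was 0.02. Prkaca, a catalytic subunit of protein kinase A, was 0.41 higher (SE 0.07, limma adjusted p = 0.000623) and Ywhab, a 14-3-3 protein, 0.42 higher (SE 0.10, limma adjusted p = 0.00780). Prkaa2, a catalytic subunit of AMP-activated protein kinase, fell by 0.57 (SE 0.13, limma adjusted p = 0.00575), and Ppp2ca, a catalytic subunit of protein phosphatase 2A, fell by 0.32 (SE 0.08, limma adjusted p = 0.0138). The list's median was 0.06. Of 8 genes known as regulators of Mlxipl, Srebf1, which encodes the insulin-responsive lipogenic factor SREBP-1, fell by 0.67 (SE 0.10, limma adjusted p = 0.000129), and the nuclear receptors Nr1h3 (LXRα) and Rxra were 0.38 and 0.31 higher (limma adjusted p = 0.00232 and 0.0115). The list's median was 0.15. Between the ChREBPβ groups 0 genes of these lists passed (limma).

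Of 15 known ChREBP targets, 8 fell in total ChREBP KO and 0 rose, with a list median of -1.16, where 10.8% of all genes passed. Between the wild types 8 of the 15 were higher and 4 lower in total ChREBP WT, where 27.0% of all genes passed. Elovl6, a fatty acid elongase, had the largest change (-3.37, SE 0.19, limma adjusted p = 8.90e-11), ahead of Acaca, acetyl-CoA carboxylase (-1.86), Tkt, transketolase (-1.83), and Acly, ATP citrate lyase (-1.66). Between the ChREBPβ groups 0 of the 15 passed (limma), and the list median was -0.09, with Elovl6 at -0.09 (SE 0.18, limma adjusted p = 0.934) and Acly at -0.09 (SE 0.10). So on the same arrays, Mlxipl probe A_55_P2119957 differed by -0.74 and the median target by -0.09, and neither the probe nor any target passed.

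The genes most like Mlxipl were taken as the named probes with the highest Pearson correlation with A_55_P2119957 over the 25 arrays, among 29405 probes of named genes that are not members. They were Hk2 (hexokinase 2, r = 0.961), Acacb (acetyl-CoA carboxylase 2, r = 0.946), Rnf144b (r = 0.941), Adcy10 (soluble adenylyl cyclase, r = 0.941) and Slc25a48 (a mitochondrial carrier, r = 0.939). After the group means were taken out, r was 0.845 for Hk2 and 0.765 for Acacb, but 0.687, 0.483 and 0.531 for Rnf144b, Adcy10 and Slc25a48. The arrays share the groups, wash batches and organ RNA, so these values are a description. As the selection used the same arrays, the knockout differences of these genes are given with no test. In the total line they were -1.54 for Hk2, -1.26 for Acacb, -2.22 for Rnf144b, -3.18 for Adcy10 and -2.80 for Slc25a48. In the ChREBPβ line they were -0.25, -0.33, -0.78, -0.46 and -0.84 in the same order, beside -0.74 for Mlxipl.

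The genes above were picked for the highest r of all candidates, so a lower r among the partners was fixed in advance. Among the same candidates the Mlx probes stood at percentiles 97.8 and 97.6. Max on A_51_P188211 stood at 94.95 and Mxd4 on A_51_P148865 at 0.877. Mlx had r = 0.644 and 0.625 with A_55_P2119957 on its 2 probes, which dropped to 0.184 and 0.177 after the group means were taken out. Max, on A_51_P188211, had r = 0.503 and, within groups, -0.27. Mxd4, on A_51_P148865, ran opposite to Mlxipl with r = -0.70 and, within groups, -0.35. Of the other Mlxipl probes, A_55_P2728555 had r = 0.876 and, within groups, 0.603, and A_55_P2045158 had r = -0.056.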

How the data were processed

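Total RNA of pgWAT was labelled with Cy3 and hybridised by the authors to 1-colour Agilent mouse arrays, and spots were measured with Agilent Feature Extraction 10.10.1.1 (submitters' processing notes). The deposited table holds the authors' log2 values of 40561 probes, quantile normalised with replicated probes merged by their median. Its columns correlated at 0.9998 or more with the log2 median intensity of the deposited scanner files, and 23 empty cells lay outside the member probes. Groups and wash batches came from the labels. All 25 arrays entered 1 limma 3.58.1 model (R 4.3.3) with terms for group and wash batch. P-values were Benjamini-Hochberg adjusted over all probes, and a gene passed with at least 1 probe under 0.05. All probes of the 8 members, at most 4 passing genes of each further list by size, and the 5 probes most like the brightest Mlxipl probe are named, with exceptions marked. The script was tested on simulated data. Members and lists were chosen with earlier results of these data known.
Scanner intensity entered only the alternatives (the study's spot filter scaled to these arrays, normexp with offset 50, processed signal scaled to the 75th percentile, no filter, other models, arrays left out). Labels do not name litters, and the number of arrays limits precision.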

Additional observations from a re-analysis of the deposited data

Results flagged for a closer look

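On Mlxipl probe A_55_P2119957 the effect of the total knockout minus that of the ChREBPβ knockout was -1.03 (limma adjusted p = 0.00162), an interaction past the threshold, with -1.77 in the total line and -0.74 in the ChREBPβ line.

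On Max probe A_51_P188211 the same difference was -0.36 (limma adjusted p = 0.00458), from -0.26 in the total line and 0.10 in the ChREBPβ line. The total ChREBP KO arrays lay below their wild types, and in the ChREBPβ line the groups overlapped.

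Replicate 8 of total ChREBP WT stood apart as the lowest of its group for Mxd4 on A_51_P148865, at 9.21 against a group median of 9.60. Without it the total-line difference was 0.39 (limma adjusted p = 0.0116).

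Replicate 2 of total ChREBP WT stood apart as the highest of its group for Mxi1 on A_55_P2728013, at 5.61 against a group median of 5.42. The array also had the highest liver and epididymis marker means of its group, and their part in this value was not tested. These were 2 of 64 groups of arrays looked at over the 16 probes, and about 1 in 20 stands apart by chance.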

How the results depend on the processing

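Mlxipl on A_55_P2119957 kept its direction in all 4 comparisons and under every alternative run. In the total line it passed under all of them, at -0.79 (mean over the 3 probes) to -1.85. In the ChREBPβ line it passed with array quality weights (-0.86, 1 member gene in place of 0) and without ChREBPβ KO replicate 4, and leaving out arrays gave -0.81 to -0.66 and 0 to 1 genes. Array weights called 48 probes in this comparison and leaving out that array 80, in place of 0. The difference of effects did not pass for the mean over the 3 probes (-0.37). The wild-type difference did not pass with liver, kidney and epididymis means as covariates (1.14). There 0 member genes were called in place of 5, and 1 probe of the whole array in place of 8912. The liver mean alone left 2 member genes and 2821 probes. These covariates were chosen after seeing the data. In the total line 2 genes in place of 4 were called with those 3 covariates, and 2 with the replicate block and wash batch. Over the whole array these models called 2672 and 2484 probes in place of 3564. The replicate block without wash batch left 1 gene in place of 2 for the difference of effects, and 772 probes of the whole array in place of 1302. Same-numbered arrays correlated at -0.48 to 0.42 in their deviations. Arrays of unlike number were not set beside them, so this cannot decide whether the numbers pair samples. A random replicate block changed no count of member genes. The causes were not tested. Leaving out arrays gave 3 to 4 genes in the total line, 2 for the difference and 5 between wild types. Among 14 further member probe results that passed, the 223 values under alternatives other than left-out arrays all kept direction, and 190 kept the call.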
